A study of Homo sapiens with 9 samples.

Results

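Class I phosphoinositide 3-kinases (PI3K) turn a membrane phosphoinositide into the lipid messenger that recruits the AKT kinases to the plasma membrane, where AKT is switched on. Class IA enzymes pair a catalytic subunit (alpha, beta or delta) with a regulatory subunit that binds activated receptors such as EGFR. The class IB enzyme pairs the gamma catalytic subunit, encoded by PIK3CG, with the adaptors encoded by PIK3R5 or PIK3R6, and is best known from leukocytes. In glioblastoma the pathway is a common route of growth signaling.

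The RNA levels of 9 genes of this pathway were examined across U87, GSCs and Diff cells: the catalytic genes PIK3CA, PIK3CB and PIK3CD, the regulatory genes PIK3R1, PIK3R2, PIK3R3 and PIK3R6, and the kinases AKT1 and AKT2. These genes were chosen with earlier results of these data known. Their rows were found in the table by gene symbol, 9 of 60606 genes. PIK3CG, the catalytic partner of PIK3R6 in class IB, and PIK3R5, the alternative class IB adaptor, are given beside these 9 genes. The question was which isoforms the 3 cell lines used, and whether that use differed between them.

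U87, an established cell line from a human glioblastoma, served here as unirradiated wild-type cells. GSCs are stem cells derived from U87 that were irradiated repeatedly to obtain radioresistance and kept in serum-free medium with EGF and bFGF. Diff cells were obtained from those GSCs by culture in serum-containing medium and were grown from cells picked out of clonal communities. Each cell line had 3 RNA-seq libraries, numbered 1 to 3, and the study's methods speak of biological replicates for its data in general, without saying whether these libraries came from separate cultures. Where they did not, p-values measure the spread between these libraries, which may be technical. GSCs differed from U87 in irradiation history, medium and cell state. Diff cells differed from GSCs in medium, cell state and selection. Diff cells differed from U87 in irradiation history, derivation through GSCs and selection. Within each comparison these cannot be told apart. In bulk RNA, fewer cells with a transcript and less of that transcript per cell cannot be told apart either.

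The values were TPM, transcripts of a gene out of 1000000, in which gene length and library total are divided out, so that levels could also be compared between genes. Sequencing depth is not kept in TPM, and no counting error could be given. Mitochondrial transcripts took 25.9% to 31.8% of TPM in the 9 libraries and the RNA RN7SL1 5.73% to 9.79%. Libraries of a cell line correlated at 0.956 to 0.971 and libraries of different cell lines at 0.846 to 0.922, across genes. Of 8 markers of glioblastoma and its stem cells, FABP7 was called higher in GSCs than in U87 (log2 fold change 1.77) and NES, GFAP and VIM were called lower (-0.53, -0.86 and -0.44), while OLIG2 and CD44 were not called. SOX2, at 0.809 to 0.994 TPM, and PROM1, at 0.379 to 0.596 TPM, were higher in GSCs than in the other cell lines but below 1 TPM and not tested. The list summed to 1531 to 1816 TPM in GSCs, 2051 to 2113 TPM in U87 and 903 to 959 TPM in Diff cells. In the third library of GSCs several of the 9 genes lay away from the other 2 libraries. Results for PIK3CB and PIK3R1, where leaving it out changed a call, are given below with and without it. Without it, log2 fold changes of GSCs against U87 were 0.27 for PIK3CA, -0.43 for PIK3CD, -0.26 for AKT1 and -0.25 for AKT2. With it they were 0.35, -0.50, -0.35 and -0.31. PIK3R3 moved the other way, from -0.61 with it to -0.74 without it. These calls all held without it.

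All members are protein-coding genes, and their positions are those of GENCODE 29 on GRCh38. PIK3CA lies at chr3:179148114-179240093 on the plus strand and PIK3CB at chr3:138652699-138834938 on the minus strand of the same chromosome. PIK3CD lies at chr1:9651732-9729114 on the plus strand and PIK3R3 at chr1:46040140-46133036 on the minus strand. PIK3R1 lies at chr5:68215720-68301821 and PIK3R2 at chr19:18153118-18170540, both on the plus strand. AKT1 lies at chr14:104769349-104795751 and AKT2 at chr19:40230317-40285536, both on the minus strand. PIK3R6 lies at chr17:8802723-8867677 and PIK3R5, the other class IB adaptor gene, directly beside it at chr17:8878911-8965712, both on the minus strand.

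The promoters were searched for 2 short motifs, because the study centred on RELA, an NF-κB factor, and because the FOXO factors are known targets of AKT. Windows of 300 bases around annotated gene starts, from RefSeq on GRCh38.p14, were present for 8 of the 9 members, 21 windows in all. The κB motif, to which NF-κB binds, was read on both strands and occurred in 1 window each of PIK3CD, PIK3CB, PIK3R1 and AKT1, which is 19.0% of the members' windows against 11.3% of all 35116 windows. The FOXO motif GTAAACA, also read on both strands, occurred in 1 window of PIK3CA, on the reverse strand, against 3.42% of all windows. The stretches that hold the matches are shown 5′ to 3′ on the strand of the gene, with the match in capitals, so that the RNA levels of these genes can be read beside them; none of the matches overlaps another.
PIK3CD: ggcggcaggcGGGGCGCCCCggcgcgcccc
PIK3CB: gcgacttgccGGGGATTCCCtattccgcag
PIK3R1: acggccgcccGGGGCATCCCcgcggctggg
AKT1: ccgcgcggtgGGGACGCCCCgggcggcgga
PIK3CA: gttcgttgttTGTTTACacgatgtgag
They lie at chr1:9651681-9651710 (plus strand) for PIK3CD, chr3:138835149-138835178 (minus) for PIK3CB, chr5:68215515-68215544 (plus) for PIK3R1, chr14:104795813-104795842 (minus) for AKT1 and chr3:179148198-179148224 (plus) for PIK3CA. The matches began 40, 240, 231, 84 and 149 bases upstream of the RefSeq start of their windows, in that order. For PIK3CA that start lies downstream of the start of its GENCODE span, so that its stretch falls inside the gene as given here. Against U87, the log2 fold changes of PIK3CD, PIK3CB, PIK3R1 and AKT1 were -0.50, 0.25, -0.19 and -0.35 in GSCs. In Diff cells they were -0.30, 0.37, -0.36 and -0.01 in the same order. Of these, PIK3CD and AKT1 were called in GSCs, and PIK3CB and PIK3R1 in Diff cells. The part of NF-κB in these values was not tested. A match of letters is a description and not a site of binding.

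PIK3CA encodes the alpha catalytic subunit, the PI3K subunit best known from cancer. It had 7.19, 6.93 and 6.83 TPM in the libraries of U87, 8.85, 8.41 and 10.3 TPM in GSCs, and 7.10, 6.71 and 6.93 TPM in Diff cells. All libraries of GSCs lay above all others, while U87 and Diff cells overlapped. PIK3CA rose in GSCs against U87 by a log2 fold change of 0.35 ± 0.09 (SE; limma with Benjamini-Hochberg adjustment over 22909 genes, adjusted p = 0.0133), on the scale of log2(TPM + 1) that is used for every log2 fold change here. It fell in Diff cells against GSCs by 0.36 ± 0.09 (limma, adjusted p = 0.0163). This last call was lost after quantile normalization, at -0.23 (limma, adjusted p = 0.0559), and without Diff replicate 2, at -0.34 (limma, adjusted p = 0.0559).

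PIK3CB, which encodes the beta catalytic subunit, had 14.1, 13.9 and 13.9 TPM in U87, 14.8, 15.9 and 20.3 TPM in GSCs, and 18.5, 17.3 and 19.3 TPM in Diff cells. U87 was the lowest of the 3 cell lines in every library, and GSCs and Diff cells overlapped through the third library of GSCs. In Diff cells PIK3CB rose against U87 by 0.37 ± 0.11 (limma, adjusted p = 0.0255). The call did not hold without Diff replicate 1, without Diff replicate 3 or without any single library of U87 (limma, adjusted p = 0.0624 to 0.0846, at log2 fold changes of 0.34 to 0.38). For GSCs against U87 the value was 0.25 ± 0.11 (limma, adjusted p = 0.0878), and 0.34 without GSCs replicate 1 (limma, adjusted p = 0.0379). Diff cells and GSCs differed by 0.12 ± 0.11 (95% interval -0.13 to 0.37; limma, adjusted p = 0.447), and by 0.25 without GSCs replicate 3 (limma, adjusted p = 0.0234).

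PIK3CD encodes the delta catalytic subunit, which is most abundant in leukocytes and was nevertheless among the more abundant catalytic transcripts of these cells. It had 20.6, 16.4 and 21.7 TPM in U87, 13.3, 15.2 and 12.04 TPM in GSCs, and 16.2, 16.1 and 14.7 TPM in Diff cells. Here U87 was the highest, with its second library only just above the highest Diff library. PIK3CD fell in GSCs against U87 by 0.50 ± 0.12 (limma, adjusted p = 0.0074). For Diff cells against U87 the value was -0.30 ± 0.12 (limma, adjusted p = 0.0786), and -0.41 without U87 replicate 2 (limma, adjusted p = 0.0201). Of 8 leukocyte markers, CD68 alone exceeded 1 TPM in every library. PTPRC, the common leukocyte antigen, was at most 0.137 TPM in any library, and SPI1, a myeloid transcription factor, had 0.541 to 1.37 TPM in Diff cells and at most 0.0740 TPM in U87. The part of such markers in the level of PIK3CD was not tested.

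**Figure D1:**
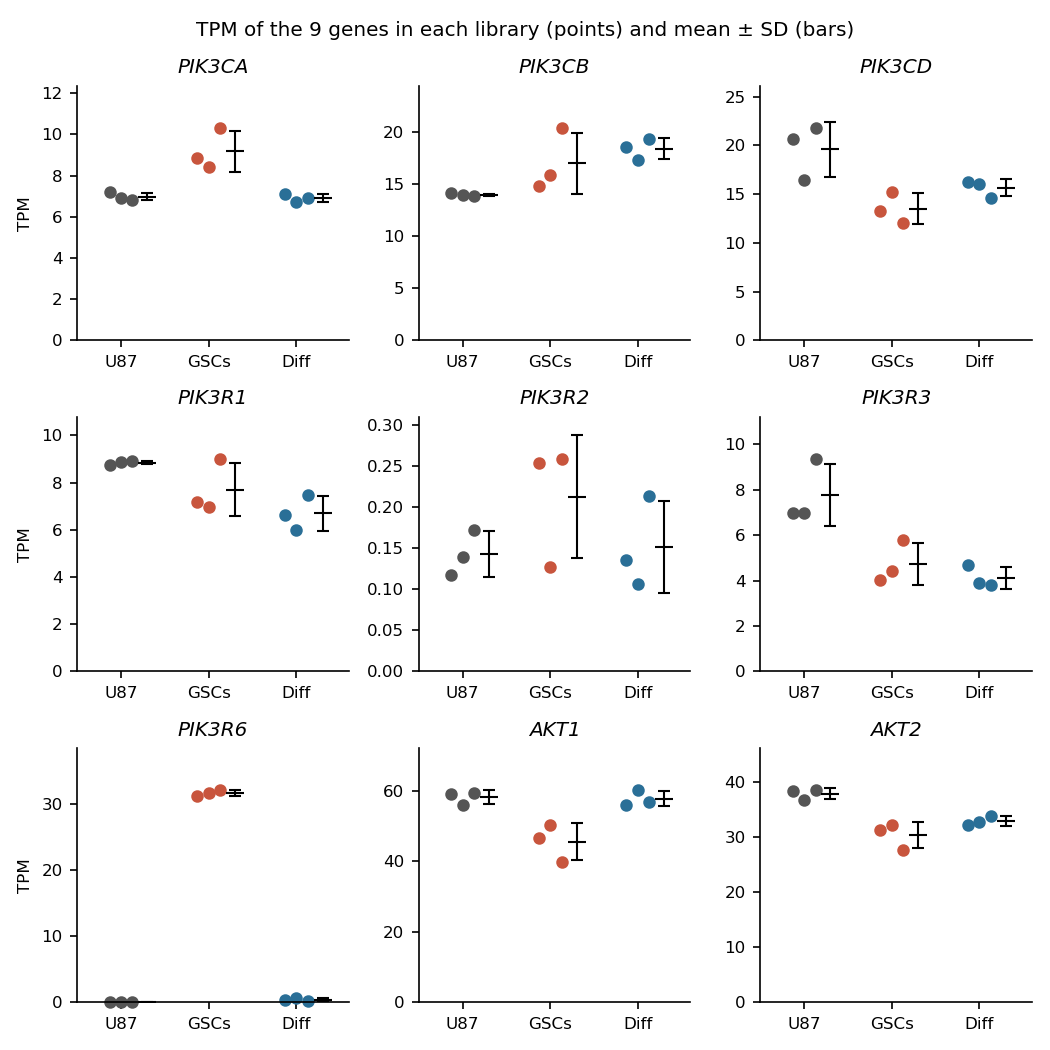
TPM of the 9 genes (y axes, each from 0 and with its own scale) in U87, GSCs and Diff cells; each point is 1 library and the bars give the mean ± SD of 3 libraries. PIK3R6 stands at 31.1 to 32.0 TPM in GSCs and below 1 TPM elsewhere, and PIK3CA is highest and AKT1 lowest in GSCs. AKT2 has its lowest mean in GSCs, where its range overlaps that of Diff cells. PIK3R2 stays below 0.3 TPM in all libraries.

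PIK3R1, the gene of the regulatory subunits that most class IA enzymes contain, had 8.76, 8.89 and 8.90 TPM in U87, 7.16, 6.96 and 8.98 TPM in GSCs, and 6.62, 5.98 and 7.47 TPM in Diff cells. Diff cells lay below U87 in every library, and the third library of GSCs lay above all of U87. PIK3R1 fell in Diff cells against U87 by 0.36 ± 0.12 (limma, adjusted p = 0.0356). The call was lost with no filter on low values, at the same fold change (limma, adjusted p = 0.0504), and with RN7SL1 and mitochondrial genes removed, at -0.33 (limma, adjusted p = 0.0586). It was also lost without Diff replicate 1 or 2 or any single library of U87, at -0.29 to -0.37 (limma, adjusted p = 0.083 to 0.119). GSCs against U87 gave -0.19 ± 0.12 (limma, adjusted p = 0.218), and -0.29 without GSCs replicate 3 (limma, adjusted p = 0.0434).

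PIK3R3, which encodes a further class IA regulatory subunit, had 6.96, 6.98 and 9.33 TPM in U87, 4.02, 4.40 and 5.76 TPM in GSCs, and 4.66, 3.88 and 3.80 TPM in Diff cells. Every library of U87 lay above every library of the other cell lines. It fell by 0.61 ± 0.16 in GSCs (limma, adjusted p = 0.0111) and by 0.77 ± 0.16 in Diff cells (limma, adjusted p = 0.0045), both against U87, and both calls held under each of 19 alternatives. Both comparisons share the U87 libraries. Diff cells and GSCs differed by -0.16 ± 0.16 (95% interval -0.51 to 0.20; limma, adjusted p = 0.487).

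PIK3R2, the gene of the beta regulatory subunit, had 0.117 to 0.172 TPM in U87, 0.127 to 0.258 TPM in GSCs and 0.106 to 0.214 TPM in Diff cells. These ranges overlapped, and the gene did not reach the mean of 1 TPM that a test required. Of its annotated exonic bases, 87.2% are shared with a readthrough gene on the same strand, ENSG00000268173 at chr19:18153158-18178117, which had at most 0.107 TPM. How reads that fit both genes were counted is not given in the sources used here, so the level of PIK3R2 is uncertain. No other member shared exonic bases to this extent on its own strand: PIK3R3 shared 17.4% with a readthrough gene listed at 0 in all libraries. On the opposite strand PIK3CA shared 35.8% with KCNMB3, which had 0.381 to 1.28 TPM, and whether counting used strand is not stated.

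PIK3R6 encodes an adaptor of the class IB enzyme. It had 31.1, 31.7 and 32.0 TPM in GSCs, 0.358, 0.613 and 0.155 TPM in Diff cells, and 0.0846 TPM in 1 library of U87, while it was listed at 0 in the other 2. Levels in GSCs and in the other cell lines were widely apart, and U87 and Diff cells also did not overlap. The log2 fold change was 4.99 ± 0.14 for GSCs against U87 (limma, adjusted p = 4.9e-08), and 0.41 ± 0.14 for Diff cells against U87 (limma, adjusted p = 0.0535). For Diff cells against GSCs PIK3R6 fell by 4.58 ± 0.14 (limma, adjusted p = 4.7e-07). These values depend on the added 1 TPM, since U87 was close to 0: with a pseudocount of 0.1, GSCs against U87 gave 8.01 and Diff cells against U87 1.83 (limma, adjusted p = 0.0098), and with a pseudocount of 5 they gave 2.86 and 0.0955 (limma, adjusted p = 0.233 for the latter). Without Diff replicate 3, the lowest of its group, Diff cells against U87 gave 0.53 (limma, adjusted p = 0.0229), and 3 further alternatives of scaling or trend also gave a call (limma, adjusted p = 0.0283 to 0.0493). The other 14 of 19 alternatives gave none (limma, adjusted p = 0.069 to 0.303), among them quantile normalization, at 0.26, and the fit without Diff replicate 2, at 0.29. PIK3R6 passed the filter on low values only through GSCs.

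The other class IB genes were scarce. PIK3CG, the gamma catalytic subunit, was listed at 0 in all libraries of U87 and in 1 of GSCs, and had at most 0.064 TPM in GSCs and 0.211 TPM in Diff cells. PIK3R5, the other class IB adaptor and the adjacent gene, had 0.60, 0.453 and 0.732 TPM in GSCs, 0.0402 to 0.0960 TPM in U87 and 0.092 to 0.127 TPM in Diff cells. PIK3R5 was thus also highest in GSCs without overlap, at levels under 1 TPM that were not tested. Within GSCs, PIK3R6 lay above PIK3CB in 3 of 3 libraries and above AKT2 in 1 of 3, so that its level was near that of AKT2. The 8 leukocyte markers summed to 2.65 to 5.27 TPM in GSCs, 2.36 to 3.72 TPM in U87 and 3.57 to 4.74 TPM in Diff cells; LYZ was listed at 0 in all libraries of GSCs, and PTPRC was at most 0.1101 TPM there. CD79A (0.389 to 0.540 TPM), ITGAM (0.146 to 0.408 TPM) and SPI1 (0.0816 to 1.07 TPM) were higher in GSCs than in U87 without overlap. SPI1 reached 0.0740 TPM in U87, so its ranges nearly met. None of these passed the filter, and ranges did not overlap for 55.8% of all genes tested. The remaining markers overlapped, and CD14, CD68 and LYZ had lower means in GSCs than in U87. The part of these markers in the level of PIK3R6 was not tested.

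The tested genes around PIK3R6 on chromosome 17 had log2 fold changes far from its own. For the 24 nearest tested genes, 12 on each side, the median log2 fold change of GSCs against U87 was 0.09, and all 24 lay below PIK3R6. For Diff cells against GSCs their median was -0.21, and none lay below PIK3R6. Among 12178 other tested protein-coding genes, the 3 whose mean levels in the 3 cell lines were nearest to its pattern were ATG9B, TRPV3 and SNCB, with root mean square differences of 0.14, 0.43 and 0.43 on the log2 scale over 3 cell lines. ATG9B, an autophagy gene, had 29.4 ± 3.80 TPM in GSCs, 0.192 ± 0.0613 TPM in U87 and 0.529 ± 0.0678 TPM in Diff cells (SD, n = 3). Like PIK3R6, ATG9B passed the filter on low values only through GSCs. TRPV3, an ion channel, had 56.1 ± 2.92 TPM in GSCs, 0.737 ± 0.0530 TPM in U87 and 3.44 ± 0.714 TPM in Diff cells (SD, n = 3). SNCB, the beta-synuclein gene, had 31.2 ± 5.59, 0.558 ± 0.123 and 1.75 ± 0.174 TPM in the same order (SD, n = 3). In Diff cells PIK3R6 averaged 0.375 TPM, below both. No other member had group means that differed by more than 1 on the log2 scale.

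AKT1 had 59.2, 55.9 and 59.5 TPM in U87, 46.6, 50.4 and 39.8 TPM in GSCs, and 56.1, 60.1 and 56.9 TPM in Diff cells. It encodes the most widely expressed AKT kinase and was the most abundant of the members in each cell line. The level in GSCs was the lowest without overlap, and U87 and Diff cells overlapped, with a difference of -0.01 ± 0.08 (95% interval -0.20 to 0.18; limma, adjusted p = 0.929). GSCs against U87 gave a fall of 0.35 ± 0.08 (limma, adjusted p = 0.0075), and Diff cells against GSCs a rise of 0.34 ± 0.08 (limma, adjusted p = 0.0131). The call of this rise was lost without Diff replicate 2, at 0.31 (limma, adjusted p = 0.051).

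AKT2, known for its part in insulin signaling, had 38.3, 36.7 and 38.4 TPM in U87, 31.3, 32.1 and 27.6 TPM in GSCs, and 32.1, 32.8 and 33.8 TPM in Diff cells. Unlike AKT1, it stayed below U87 in Diff cells in every library. It fell by 0.31 ± 0.07 in GSCs (limma, adjusted p = 0.0041) and by 0.20 ± 0.07 in Diff cells (limma, adjusted p = 0.0425), both against U87. The first call held under all 19 alternatives and the second was lost under 13 of them, at log2 fold changes of -0.15 to -0.22 (limma, adjusted p = 0.0535 to 0.154). These were the 3 other scalings, the fits with no filter, no trend or the replicate block, and those without any single library of Diff cells or U87 or without GSCs replicate 1. Diff cells and GSCs differed by 0.11 ± 0.07 (95% interval -0.04 to 0.26; limma, adjusted p = 0.218).

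Chromosomal neighbours were also compared for the other members, over the 24 nearest tested genes of each. In GSCs against U87, PIK3R3 lay below all 24 of its neighbours, and the medians around it were 0.04 in GSCs and 0.01 in Diff cells, both against U87. PIK3CB lay above 22 of its 24 neighbours in Diff cells against U87. Other called members lay among their neighbours. In GSCs against U87, PIK3CA, PIK3CD, AKT1 and AKT2 lay above 17, 6, 5 and 9 of 24. In Diff cells against U87, PIK3R1 and AKT2 lay above 5 and 10 of 24, with neighbour medians of -0.18 and -0.11. The part of neighbouring genes in these results was not tested.

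**Figure D2:**
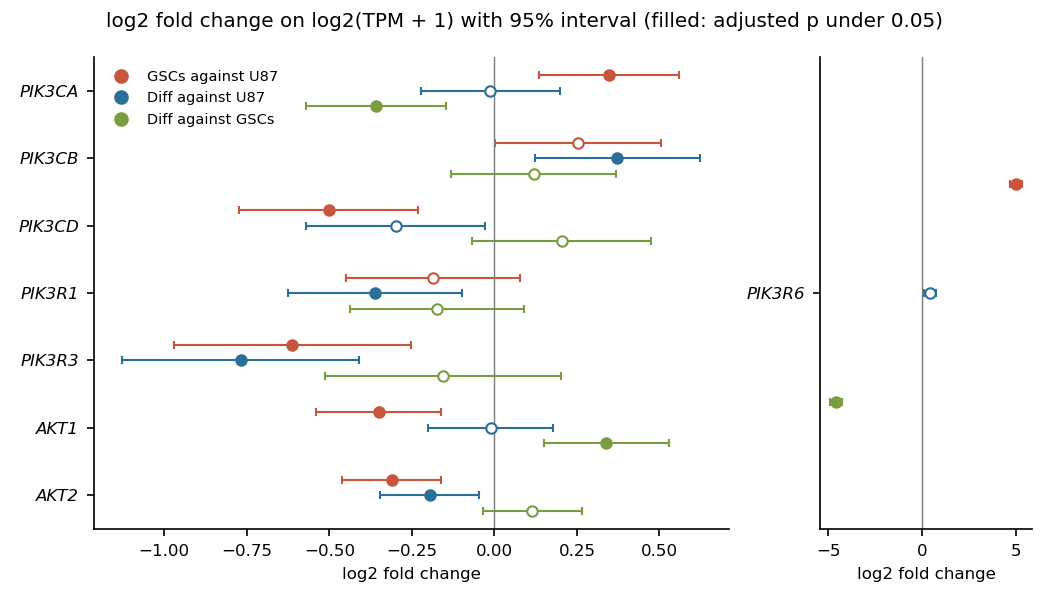
Log2 fold change (x axis, with 95% interval from limma) of 8 members in 3 comparisons; filled points have an adjusted p under 0.05, and PIK3R6 has its own panel because its values reach 4.99. PIK3R3 lies below 0 in both comparisons with U87, and PIK3CA is higher and AKT1 lower in GSCs than in both other cell lines.

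Of the 8 members tested, 2 were called higher and 4 lower in GSCs against U87 (75%), beside 48.6% of all genes tested (25.3% higher and 23.3% lower). For Diff cells against U87 the counts were 1 higher and 3 lower (50%), beside 39.4% of all genes (18.9% higher and 20.5% lower). For Diff cells against GSCs they were 1 higher and 2 lower (37.5%), beside 34.8% of all genes (15.0% higher and 19.8% lower). PIK3R6, which passed the filter through the cell line where it is high, is in these counts; of the 7 other members, 5, 4 and 2 were called in that order. With a log2 fold change over 1 as well, PIK3R6 was the only member called, in GSCs against U87 (17.1% of all genes) and in Diff cells against GSCs (8.01% of all genes), and no member was called in Diff cells against U87 (12.3% of all genes). TPM ranges did not overlap for 7, 6 and 3 of the 8 members in these comparisons, in the same order, beside 55.8%, 55.2% and 46.7% of all genes. The members' median log2 fold changes were -0.25, -0.10 and -0.02 in that order, against 0.02, -0.04 and -0.06 over all genes tested. Apart from PIK3R6, the members moved by at most 0.77 on the log2 scale. The members were chosen with earlier results of these data known, so their counts beside all genes are a description.

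The use of isoforms was compared as the share of each gene in the summed TPM of its set within a library, into which no scaling between libraries enters. The summed level of the catalytic genes was nearly the same in the 3 cell lines, at 40.6 ± 2.84 TPM in U87, 39.7 ± 2.87 TPM in GSCs and 41.0 ± 0.882 TPM in Diff cells (SD, n = 3). The mean shares of the catalytic genes differed between the cell lines. No catalytic share passed 0.05 when adjusted over the 9 shares tested (exact permutation, adjusted p = 0.0505 for each). That result depended on how many shares were adjusted together, as given below. PIK3CD made up 48.2% ± 3.67 of the catalytic sum in U87, 34.2% ± 5.35 in GSCs and 38.2% ± 2.202 in Diff cells (SD, n = 3). PIK3CB made up 34.6% ± 2.44 in U87, 42.6% ± 4.35 in GSCs and 44.9% ± 2.13 in Diff cells (SD, n = 3). PIK3CD exceeded PIK3CB in 3 of 3 libraries of U87, and PIK3CB exceeded PIK3CD in 3 of 3 libraries of GSCs and 3 of 3 of Diff cells. PIK3CA took the smallest share, with 17.3% ± 1.25 in U87, 23.1% ± 1.58 in GSCs and 16.9% ± 0.119 in Diff cells (SD, n = 3). On the opposite strand KCNMB3 shares 35.8% of the exonic bases of PIK3CA, and whether counting used strand is not stated. The level of PIK3CA is therefore uncertain, and with it the catalytic shares, their order, their sum and the ratio given below.

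Among the regulatory genes, PIK3R1 made up 53.1% ± 4.07 in U87 and 61.0% in both GSCs and Diff cells (SD 1.41 and 3.63, n = 3). PIK3R3 made up 46.1% ± 3.999 in U87, 37.3% ± 1.83 in GSCs and 37.6% ± 4.03 in Diff cells (SD, n = 3). PIK3R2 was at most 2.21% of the sum in any library. The summed level of these regulatory genes was 16.7 ± 1.44 TPM in U87, 12.6 ± 2.04 TPM in GSCs and 11.0 ± 0.860 TPM in Diff cells (SD, n = 3), so that the ratio of catalytic to class IA regulatory TPM was 2.43 ± 0.190, 3.17 ± 0.299 and 3.75 ± 0.242. This ratio did not overlap between any of the cell lines. It was computed after the values of the genes had been seen and was not tested. The level of PIK3R2 is uncertain because of the readthrough gene that shares its exons, and with it the regulatory shares, their sum and this ratio. If the class IB adaptors PIK3R5 and PIK3R6 were added to the regulatory sum, the difference in this ratio between GSCs and U87 turned from 0.74 to -1.53.

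Between AKT1 and AKT2, AKT1 made up 60.6% ± 0.227 of the summed TPM of both in U87, 59.97% ± 1.03 in GSCs and 63.7% ± 0.978 in Diff cells (SD, n = 3). Diff cells thus lay above both other cell lines without overlap, with 62.8% in their lowest library beside 61.1% in the highest of GSCs and 60.8% in the highest of U87. GSCs and U87 overlapped in this proportion.

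Over the 3 cell lines, an exact permutation test on the 280 divisions of 9 libraries gave p = 0.0107 for the share of PIK3CD, 0.025 for PIK3CA, 0.0286 for PIK3CB and PIK3R3 and 0.0357 for PIK3R1. For PIK3R2 the exact p was 0.0643. After Benjamini-Hochberg adjustment over the 9 shares tested, the value was 0.0505 for the 5 genes named before and 0.0643 for PIK3R2, so that none of these 6 shares passed 0.05. For the share of AKT1 in AKT1 and AKT2 the exact permutation p was 0.0143, and 0.0381 when adjusted with the 8 shares that use this pair. In that smaller family the adjusted exact permutation p was also 0.0381 for PIK3CA, PIK3CB, PIK3CD and PIK3R3, 0.0408 for PIK3R1 and 0.0643 for PIK3R2, so that the calls of shares depend on how many are adjusted together. Without GSCs replicate 3, adjusted over 9 shares, the exact permutation p was 0.0214 for PIK3CB, and without U87 replicate 3 it was 0.0321 for PIK3CA. All other class IA shares with 1 library left out stayed above the threshold, at an adjusted exact permutation p of 0.0536 to 0.214. Among them were PIK3CB at 0.122 and PIK3R1 and PIK3R3 at 0.141, all without U87 replicate 3. Shares within a set sum to 100% and are not independent of each other. Between pairs of cell lines, the exact permutation test of 3 libraries against 3 cannot go below 0.1. The shares of PIK3CB, PIK3CD, PIK3R1 and PIK3R3 reached that lowest value for both irradiated lines against U87, that of AKT1 for Diff cells against both others, and that of PIK3CA for GSCs against both others. Between GSCs and Diff cells the class IA regulatory shares were 61.0% and 61.0% for PIK3R1 (exact permutation p = 1.0), and 37.3% and 37.6% for PIK3R3 (exact permutation p = 0.8).

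**Figure D3:**
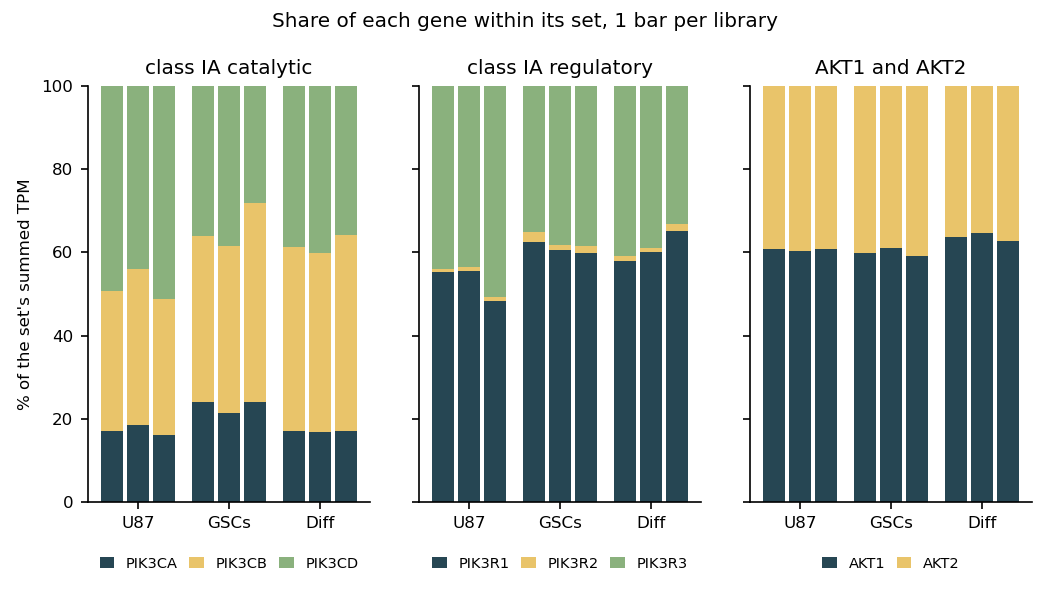
Share of each gene in the summed TPM of its set (y axis, percent), 1 bar for each of the 9 libraries, for the class IA catalytic genes, the class IA regulatory genes and AKT1 with AKT2. PIK3CD is the largest catalytic share in U87 and PIK3CB in GSCs and Diff cells; AKT1 has its largest share in Diff cells.

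The other genes of the pathway were taken from a list of 46 genes by role, of which 40 passed the filter. Of these, 18 were called higher and 8 lower in GSCs against U87 (65.0%, beside 48.6% of all genes, 25.3% higher and 23.3% lower). Between Diff cells and U87, 16 were called higher in Diff cells and 5 lower (52.5%, beside 39.4% of all genes, 18.9% higher and 20.5% lower). Between Diff cells and GSCs, 11 were called higher in Diff cells and 7 lower (45.0%, beside 34.8% of all genes, 15.0% higher and 19.8% lower). The median log2 fold changes of the list were 0.20, 0.18 and 0.07, beside 0.02, -0.04 and -0.06 over all genes tested. The class II and III kinases, which make other phosphoinositides, had 4 of 5 genes called higher in GSCs and 3 of 5 in Diff cells, against U87, and none called lower. One of those called in both, PIK3C2G, averaged under 1 TPM in U87 and in Diff cells and passed the filter through GSCs, where it is high. Of 6 mTORC1 genes, which act downstream of AKT, GSCs had 3 called higher and 2 lower than U87. Diff cells had 4 called higher and 1 lower than U87. RHEB, TSC1 and TBC1D7 were called higher in both, and TSC2 in Diff cells alone. RPTOR was called lower in both, and AKT1S1 in GSCs alone. The group mixes genes that promote mTORC1 with genes that restrain it, so these counts give no direction of its activity. Of 5 AKT substrates on the list, GSCs had 1 called higher and 1 lower than U87, and Diff cells none higher and 1 lower; between Diff cells and GSCs none was called.

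Inhibitors of the pathway moved in both directions. DDIT4, a stress-induced inhibitor of mTORC1, fell by 4.24 in Diff cells (limma, adjusted p = 1.04e-06) and by 2.31 in GSCs (limma, adjusted p = 2.35e-05), against U87. TRIB3, a pseudokinase reported to bind AKT, had 30.0 to 41.7 TPM in U87, 2.48 to 3.14 TPM in GSCs and 4.48 to 6.58 TPM in Diff cells. It fell by 3.21 in GSCs and by 2.53 in Diff cells. Its relative TRIB1 went the other way, with 12.9 to 16.0 TPM in U87, 29.8 to 33.7 TPM in GSCs and 38.8 to 43.1 TPM in Diff cells, and log2 fold changes of 1.09 and 1.39 against U87. PHLPP1, a phosphatase that acts on AKT, had 7.85 to 9.19 TPM in GSCs, 3.80 to 5.11 TPM in U87 and 3.26 to 3.55 TPM in Diff cells, and fell by 1.10 from GSCs to Diff cells. In each of these comparisons with a change over 1 the TPM ranges of the cell lines did not overlap and the limma call was past the threshold.

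The remaining genes with changes over 1 were kinases, an adaptor and a component of the TSC complex. PIK3C2G, a class II kinase, had 2.45 to 3.42 TPM in GSCs, 0.0743 to 0.146 TPM in U87 and 0.498 to 0.987 TPM in Diff cells, and so was highest in GSCs like PIK3R6, with log2 fold changes of 1.81 for GSCs against U87 and -1.23 for Diff cells against GSCs. PIK3C2B, another class II kinase, was highest in Diff cells, with 12.5 to 12.8 TPM beside 4.72 to 5.39 TPM in U87, and rose between them by 1.15 on the log2 scale. IRS2, an adaptor that links the insulin receptor to class IA PI3K, rose by 1.05 in GSCs against U87, from 18.1 ± 2.59 to 38.5 ± 4.53 TPM (SD, n = 3). TBC1D7, a subunit of the TSC complex, rose by 1.17 in Diff cells against U87, from 3.31 ± 0.552 to 8.64 ± 0.305 TPM (SD, n = 3).

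**Figure D4:**
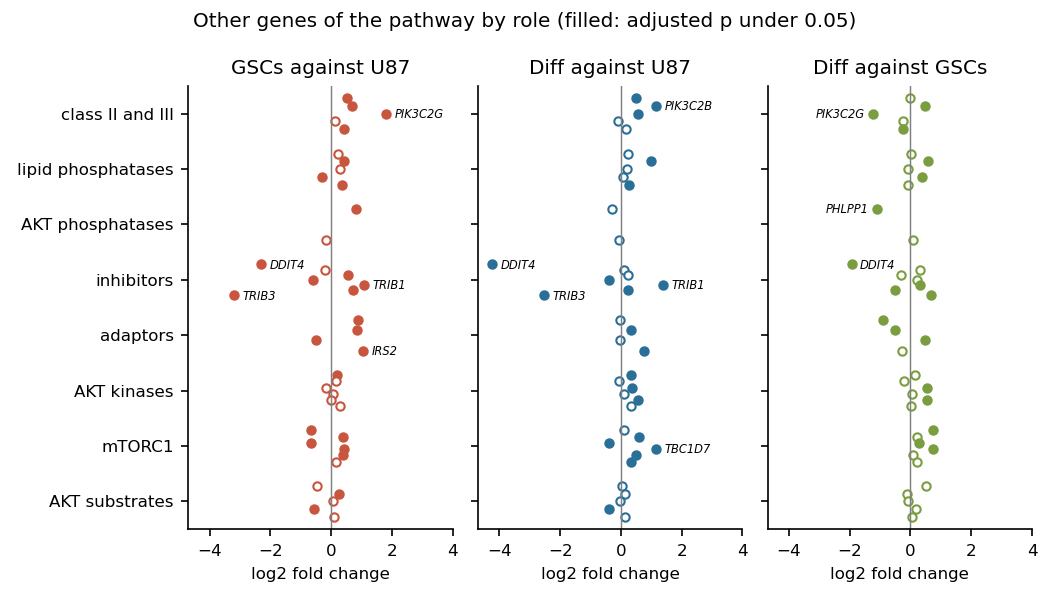
Log2 fold change (x axis) of the 40 tested genes of the pathway list by role (y axis) in 3 comparisons; each point is 1 gene, filled where the adjusted p was under 0.05, and genes called with a change over 1 are named. Most points lie between -1 and 1; DDIT4 and TRIB3 lie farthest below 0 in both comparisons with U87.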

How the data were processed

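RNA-seq of 3 libraries each of U87, GSCs and Diff cells was used, grouped by the sample records. Expression values were deposited by the authors as log2(TPM + 1), in a single table of 60606 genes with no coordinates; back-transformed TPM of each library summed to 1000000. The submitters' processing notes name FastQC 0.11.9, Trimmomatic 0.39, HISAT2 2.2.1, featureCounts 2.0.5, R 4.2.0 and the build GRCh38; the annotation release and strand setting are not given in the sources used here. The sample records describe Magzol extraction, rRNA removal and directional libraries, and the study's methods Trizol and oligo(dT) enrichment.

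For the 22909 genes whose TPM averaged over 1, the deposited log2 values of the 3 cell lines entered a single linear model. It was fitted with lmFit and eBayes of limma 3.58.1 (trend on; R 4.3.3), with Benjamini-Hochberg adjustment within each comparison and a call at an adjusted p under 0.05. Errors of log2 fold changes are standard errors. Shares were computed from TPM and tested by two-sided exact permutation over libraries. Both procedures were first tested on simulated data. Of the genes tested, 21994 were placed on GENCODE 29 to find neighbours. Promoter windows came from RefSeq, and one for PIK3R6 was not used here. Figures were drawn with matplotlib 3.10.9 in Python 3.11.15, and tables handled with numpy 2.4.6 and pandas 2.3.3.

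The members, the pathway list and the marker lists were chosen with earlier results of these data known. Some genes and shares of the lists are not reported here, and the lists are counted without them, whereas the main adjustment of shares keeps all 9 planned. Named were all members, PIK3CG and PIK3R5, up to 8 list genes per comparison called with a log2 fold change over 1, genes sharing exons with a member, and the 3 genes nearest in pattern to a member whose means ranged over more than 1. Alternatives covered the pseudocount, the filter, scaling, the samples in the fit, the trend, the replicate block, other gene sets for the shares, and each library left out; the 19 alternatives for a fold change include 9 of the last kind.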

Additional observations from a re-analysis of the deposited data

How the results depend on the processing

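The limits of these values are the 3 libraries of each cell line, the unknown depth, and, for PIK3R2 and PIK3R6 outside GSCs, levels under 1 TPM. With a log2 fold change over 1 added to the call, 0, 1 and 1 members and 2812, 3908 and 1836 of all genes were called in Diff cells against U87, GSCs against U87 and Diff cells against GSCs. Without a filter, 2 members were called in Diff cells against U87 in place of 4. With PIK3R6 left out, chosen after seeing the data, the counts of members called were 4, 5 and 2 in that order. Leaving out 1 library at a time gave 1 to 4 members called in Diff cells against U87, with 1 without Diff replicate 1 and without U87 replicate 1 or 3, and 1 to 4 in Diff cells against GSCs, with 1 without Diff replicate 2. In GSCs against U87 it gave 6 to 7. The pathway list kept counts within 1.5 times except with a log2 fold change over 1 added after seeing the data, which left 5, 5 and 3 genes.

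Of 456 values of log2 fold changes of members under alternatives, 408 kept their direction and side of the threshold, 28 lost a call, 9 gained one and 11 changed sign; the last were near 0 and not called. For Diff cells against U87, PIK3CA gave 0.0525 after quantile normalization, 0.0183 with median-ratio scaling and 0.0304 without RN7SL1 and mitochondrial genes, and AKT1 gave 0.00445, 0.0225 and 0.0347 in the same order. Leaving out single libraries gave -0.0290 to 0.00650 for PIK3CA and -0.0410 to 0.00854 for AKT1. The scalings moved the median of all genes by at most 0.08 on the log2 scale.

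Share differences between the highest and lowest cell line, at an adjusted p of 0.0505 before, crossed the threshold in several alternatives. As log2 ratios to the other genes of the set, PIK3CA, PIK3CB, PIK3CD, PIK3R1 and PIK3R3 gave 0.566, 0.627, 0.845, 0.469 and 0.522 (exact permutation, adjusted p = 0.0459). With readthrough genes added to PIK3R2 and PIK3R3, PIK3R1 and PIK3R3 passed at 7.89 and 8.80 percentage points (exact permutation, adjusted p = 0.0482). PIK3CA, PIK3CB and PIK3CD kept 6.25, 10.3 and 13.9 and passed only because shares are adjusted together. With PIK3R1 and PIK3R3 alone, chosen after seeing the data, both gave 8.54 (exact permutation, adjusted p = 0.0429). With PIK3R5 and PIK3R6 added to the regulatory set, the difference of GSCs from U87 turned to -35.6 for PIK3R1 and -0.371 for PIK3R2, and U87 exceeded GSCs by 35.3 for PIK3R3 (exact permutation, adjusted p = 0.0098), since PIK3R6 then makes up most of the sum in GSCs. Leaving out single libraries gave 5.76 to 7.16 percentage points for PIK3CA, 9.15 to 11.7 for PIK3CB, 10.9 to 16.1 for PIK3CD, 5.59 to 9.17 for PIK3R1, 0.563 to 1.12 for PIK3R2 and 6.47 to 10.01 for PIK3R3. For AKT1 in AKT1 and AKT2, Diff cells exceeded U87 by 3.09 percentage points, and by 2.58 to 3.55 with single libraries left out; the call was lost without Diff replicate 2, GSCs replicate 1 or U87 replicate 1 or 3 (exact permutation, adjusted p = 0.05 to 0.0514).

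The replicate numbers are not stated to mark a shared batch. Same-numbered libraries deviated together at correlations of -0.04 to 0.05, and not every library correlated best with its number. With 3 libraries of each cell line, these correlations cannot tell whether same-numbered libraries shared a batch. With the replicate block, 3, 6 and 3 members and 8434, 10619 and 7230 of all genes were called in Diff cells against U87, GSCs against U87 and Diff cells against GSCs. The differences of shares kept their values, with an adjusted exact permutation p of 0.125 for the 6 class IA shares under the replicate block, while for AKT1 in AKT1 and AKT2 the call at 3.09 percentage points was lost (exact permutation, adjusted p = 0.0952).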
